A study of Mus musculus with 6 samples.

Results

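Histone lysine acetyltransferases were examined by RNA-seq in freshly isolated MuSCs, the stem cells that reside beside myofibres and rebuild injured muscle, taken from control and Taf4asKO mice. The set held 10 genes chosen by symbol, Kat5, Kat6a, Kat6b, Kat7, Kat8, Kat2a, Kat2b, Crebbp, Ep300 and Hat1, out of 22081 genes in the table, and all 10 were measured above the limit for testing (a mean of at least 5 normalized counts). Each group held 3 libraries, each from 90000 sorted cells and 10 ng of total RNA. All mice were C57BL/6 adults. In the Taf4asKO group both Taf4a alleles (gene symbol Taf4) were floxed around exons 11 and 12 and deleted by a tamoxifen-inducible Cre under Pax7, a transcription factor that marks MuSCs, so that the deletion was aimed at MuSCs alone. Per the study's reporting form, controls were littermates that also carried the floxed alleles, with or without the Cre, and tamoxifen was listed for the Taf4asKO mice only. Some mice of either kind carried a Pax7-zsGreen reporter. Which of these genotypes each control library had, and whether animals were pooled, is not given in the sources used here. Cells were sorted as negative for Sca1, CD45 and CD31 and positive for integrin alpha-7 or for the reporter.

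Lysine acetyltransferases move an acetyl group from acetyl-CoA to lysines of histone tails, which loosens contacts between histones and DNA and creates docking sites for bromodomain proteins. The MYST family (Kat5, Kat6a, Kat6b, Kat7 and Kat8), the GCN5 family (Kat2a and Kat2b) and the p300/CBP pair (Ep300 and Crebbp) work at chromatin in large complexes, while Hat1 is a type B enzyme that acetylates newly made histone H4 before it is deposited. TAF4 is a subunit of the TFIID complex, which brings RNA polymerase II to promoters, and the comparison asks how the transcripts of these enzymes differed between cells with and without an intact Taf4a.

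Between the groups, the RNA of these enzymes differed little. Kat5 (TIP60, the enzyme of the NuA4 complex, with roles in DNA repair) was the only member that passed the threshold in the fit with no covariate, at 0.717 times the control level. That is 1 of 10 genes lower, beside 6.71% of all genes tested. The count went to 0 without control replicate 1, without any single Taf4asKO replicate, and after adjustment for exon length and GC content. Fewer of all genes passed in these fits too, from 5.14% to 11.5% in either direction against 12.6% as reported. Over 18 alternatives the log2 fold change of Kat5 stayed between -0.56 and -0.41. Kat2a (GCN5, the enzyme of SAGA and ATAC) was lower in every Taf4asKO library than in any control library and missed the threshold narrowly. With the replicate number as a block Kat2a passed too (limma adjusted p = 0.024). The count was then 2 of 10 lower, beside 8.98% of all genes. Kat2a also passed with upper-quartile or total-count scaling, with a mean of at least 50 and without control replicate 3. In those fits 11.7% to 19% of all genes passed in either direction. No member rose, beside 5.93% of all genes. For 8 of the 10 genes the log2 fold change was smaller than 0.2 in either direction.

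Windows around the transcription start are shown for the members with the lowest Taf4asKO levels relative to control, Kat5 and Kat2a, and for Hat1, whose groups overlapped, because the study searched the sites bound by TAF4A for the motifs of NF-Y (CCAAT) and SP1 (GGGCGG). They run from 250 bases before to 50 bases after an annotated start, on the gene's own strand, and come from RefSeq on GRCm38.p6. Capitals mark each CCAAT or GGGCGG found on either strand, so that a match on the other strand reads ATTGG or CCGCCC.
Kat5, upstream start (chr19:5610045-5610344, minus strand): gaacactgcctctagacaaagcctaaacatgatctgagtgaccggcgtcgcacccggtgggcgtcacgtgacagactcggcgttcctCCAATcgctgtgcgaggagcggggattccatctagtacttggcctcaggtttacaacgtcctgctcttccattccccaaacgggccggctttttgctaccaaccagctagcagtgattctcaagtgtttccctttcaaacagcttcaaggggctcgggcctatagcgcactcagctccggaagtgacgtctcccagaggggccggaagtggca
Kat5, downstream start (chr19:5609695-5609994, minus strand): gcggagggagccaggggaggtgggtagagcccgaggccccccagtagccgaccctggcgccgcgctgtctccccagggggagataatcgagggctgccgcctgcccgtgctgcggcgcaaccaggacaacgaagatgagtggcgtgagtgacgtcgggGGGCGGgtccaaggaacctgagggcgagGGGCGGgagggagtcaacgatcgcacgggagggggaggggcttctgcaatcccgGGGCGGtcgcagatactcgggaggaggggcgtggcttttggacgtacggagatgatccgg
Kat2a (chr11:100712418-100712717, minus strand): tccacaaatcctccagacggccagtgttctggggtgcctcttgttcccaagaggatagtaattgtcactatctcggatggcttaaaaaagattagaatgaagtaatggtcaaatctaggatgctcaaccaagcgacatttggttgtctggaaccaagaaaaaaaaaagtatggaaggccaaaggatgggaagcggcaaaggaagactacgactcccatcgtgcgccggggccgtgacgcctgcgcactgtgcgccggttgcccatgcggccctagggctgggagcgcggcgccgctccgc
Hat1 (chr2:71389010-71389309, plus strand): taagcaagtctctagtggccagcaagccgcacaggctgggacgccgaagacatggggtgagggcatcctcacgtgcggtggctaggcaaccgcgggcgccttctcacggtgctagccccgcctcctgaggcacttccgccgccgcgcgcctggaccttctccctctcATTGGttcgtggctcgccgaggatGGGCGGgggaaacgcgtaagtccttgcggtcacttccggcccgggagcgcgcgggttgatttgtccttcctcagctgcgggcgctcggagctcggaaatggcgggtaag
The upstream window of Kat5 held 1 CCAAT, at position -163 from the start, and the downstream window held 3 copies of GGGCGG. The Kat2a window held neither motif. Hat1 held 1 CCAAT at -83, read on the other strand, and 1 GGGCGG at -59. RefSeq windows were matched for 9 of the 10 members (13 windows, since some genes have several starts; Kat6a was not matched). CCAAT lay in a window of 5 of the 9 genes (6 of 13 windows) and in 37.4% of all 32851 windows, and GGGCGG in 6 of the 9 genes (8 of 13 windows) against 35.7% of all windows. TATAAA, the core of the TATA box, was in 0 of the 13 and in 13.6% of all windows. These matches describe the letters only, and members with and without CCAAT, and with and without GGGCGG, stood among the genes whose groups overlapped.

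Total normalized counts lay between 12338676 and 14551732 per library, and the reads estimated behind them between 10588144 and 17612869. The normalized count is the read count divided by a size factor per library, rounded to a whole number. Of 18562 genes tested with limma, 12.6% passed the threshold (at least 1.3-fold different, with a limma p below 0.05 after Benjamini-Hochberg adjustment), 5.93% with higher and 6.71% with lower values in Taf4asKO MuSCs. Taf4 itself read 613, 534 and 478 in control, and libraries labelled Taf4asKO read 631, 565 and 574 (log2 fold change 0.13, limma adjusted p = 0.524). Reads of every exon enter this value, so it is no measure of the 2 deleted exons and did not check the labels. By RT-qPCR and western blot, the study reported that Taf4a transcript and protein were nearly absent in Taf4asKO MuSCs.

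MuSC markers were high in all libraries (Pax7 from 10363 to 13007), and the 12 of them together summed to 56530 to 60970 in control and 52679 to 54183 in Taf4asKO. With limma 5 of the 12 fell (log2 fold changes of -1.97 for Cd34, -0.91 for Fgfr4, -0.85 for Myf5, -0.52 for Cdh15 and -0.43 for Itga7, the integrin used in the sort) and 2 rose (0.88 for Sdc4 and 0.74 for Vcam1). The 8 Schwann cell markers summed to 3242 to 5774 and 6887 to 8169 (6 rose and 1 fell), and the 8 endothelial markers to 888 to 1313 and 1416 to 1788 (all above 0 in log2 fold change, 0 passed), both without overlap. The 4 immune cell markers measured of 8 listed summed to 469 to 581 and 696 to 942, a difference carried by Lyz2 (94, 357 and 320 against 465, 729 and 483), while Cd68, Csf1r and Cd79a had log2 fold changes below 0. The 10 fibro-adipogenic progenitor markers overlapped in their sum (58320 to 99002 and 43844 to 76598), to which Col3a1 gave 46225 to 47700 in control and 13082 to 17573 in Taf4asKO. Col3a1 and Dpt fell, and the other 8 had log2 fold changes above 0 (median of all 10 0.85). The 6 tenocyte and mural cell markers (24293 to 27985 and 23551 to 27593, 2 rose) and the 8 myofibre markers (1269 to 3922 and 2260 to 2866, 0 passed) overlapped. The endothelial, immune cell and myofibre lists had 0 calls with limma-voom too, and 5, 2 and 0 genes at an unadjusted p under 0.05 (28.8% of all genes). Without control replicate 2 they had 1, 1 and 2 higher calls, and without control replicate 3 the endothelial list had 1 and the fibro-adipogenic progenitor list 3. The 6 higher calls of Schwann cell markers became 4 without control replicate 1, 3 without control replicate 3, and 2, 1 and 1 without Taf4asKO replicates 1, 2 and 3. Tenocyte and mural cell markers had 0 to 3 higher calls without 1 library, with 0 without Taf4asKO replicate 2 or 3, and the 5 MuSC markers that fell became 3 without any single Taf4asKO replicate. With the replicate block, 6 fibro-adipogenic progenitor markers (Pdgfra, Dcn, Lum, Col1a1, Col1a2 and Clec3b), 2 endothelial markers (Cdh5 and Kdr), 1 immune cell marker (Lyz2) and 3 tenocyte and mural cell markers passed as higher, beside 9.09% of all genes. With exon length and GC adjustment added to the block, 4 endothelial markers and 1 myofibre marker did. No marker measured was at 0 in any library, and the study's reporting form states that the sorted cells were less than fully pure. The part of other cells in the differences below was not tested. In bulk RNA, fewer cells of a type and less RNA per cell cannot be told apart.

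Among the MYST enzymes, Kat5 (ENSMUSG00000024926, mm10 chromosome 19, 5603017 to 5610094, minus strand) was measured at 421, 452 and 373 normalized counts in control MuSCs and 304, 282 and 304 in Taf4asKO MuSCs. Every Taf4asKO library lay below every control library, and the 3 Taf4asKO values were close together. The means were 415.3 ± 39.8 and 296.7 ± 12.7 (SD, n = 3). The log2 fold change was -0.48, with an SE of 0.12, a 95% confidence interval from -0.75 to -0.21 and a limma adjusted p of 0.0276. All fold changes here are on the log2(value + 1) scale. The call did not hold after adjustment of each library for exon length and GC content (log2 fold change -0.41, limma adjusted p = 0.0633), nor without control replicate 1 (limma adjusted p = 0.0702) or without any single Taf4asKO replicate (limma adjusted p from 0.073 to 0.128). Exons of Kat5 overlap exons of Rnaseh2c, which encodes a subunit of ribonuclease H2, on the opposite strand. The sources used here do not say whether reads were counted by strand. Rnaseh2c went in the other direction, with 134, 121 and 142 in control and 189, 162 and 171 in Taf4asKO (log2 fold change 0.39, limma adjusted p = 0.113).

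Kat8 (MOF, ENSMUSG00000030801, chromosome 7, 127912516 to 127925837, plus strand), which acetylates histone H4 at lysine 16 in the MSL complex and also works in the NSL complex, had 157, 209 and 159 in control and 156, 152 and 163 in Taf4asKO. Control replicate 2 stood above the other 5 libraries, which lay from 152 to 163. The log2 fold change was -0.14, with a 95% confidence interval from -0.50 to 0.21 (SE 0.16, limma adjusted p = 0.598), and without control replicate 2 it was -0.0097. Its exons overlap those of Prss8 on the opposite strand.

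Kat6a (MOZ, ENSMUSG00000031540, chromosome 8, 22859535 to 22943259, plus strand), an acetyltransferase of histone H3 named for its fusions in leukaemia, had 3404, 3154 and 3039 in control and 3495, 3350 and 3312 in Taf4asKO. Its paralog Kat6b (MORF, ENSMUSG00000021767, chromosome 14, 21499770 to 21672478, plus strand) had 1316, 1311 and 1497 in control and 1497, 1519 and 1566 in Taf4asKO. Both genes had overlapping groups, Kat6b only through a tie at 1497. The log2 fold changes were 0.08 (SE 0.09, limma adjusted p = 0.584) for Kat6a and 0.15 (SE 0.09, limma adjusted p = 0.314) for Kat6b. The value of Kat6a was 0.13 without control replicate 1 and 0.047 without control replicate 3. Kat7 (HBO1, ENSMUSG00000038909, chromosome 11, 95274259 to 95310246, minus strand), which acetylates histone H3 at lysine 14 and histone H4 and takes part in the licensing of replication origins, had 893, 1063 and 881 in control and 950, 934 and 893 in Taf4asKO. The Taf4asKO values fell inside the control range, at a log2 fold change of -0.03 (limma adjusted p = 0.905, SE 0.11).

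**Figure D1:**
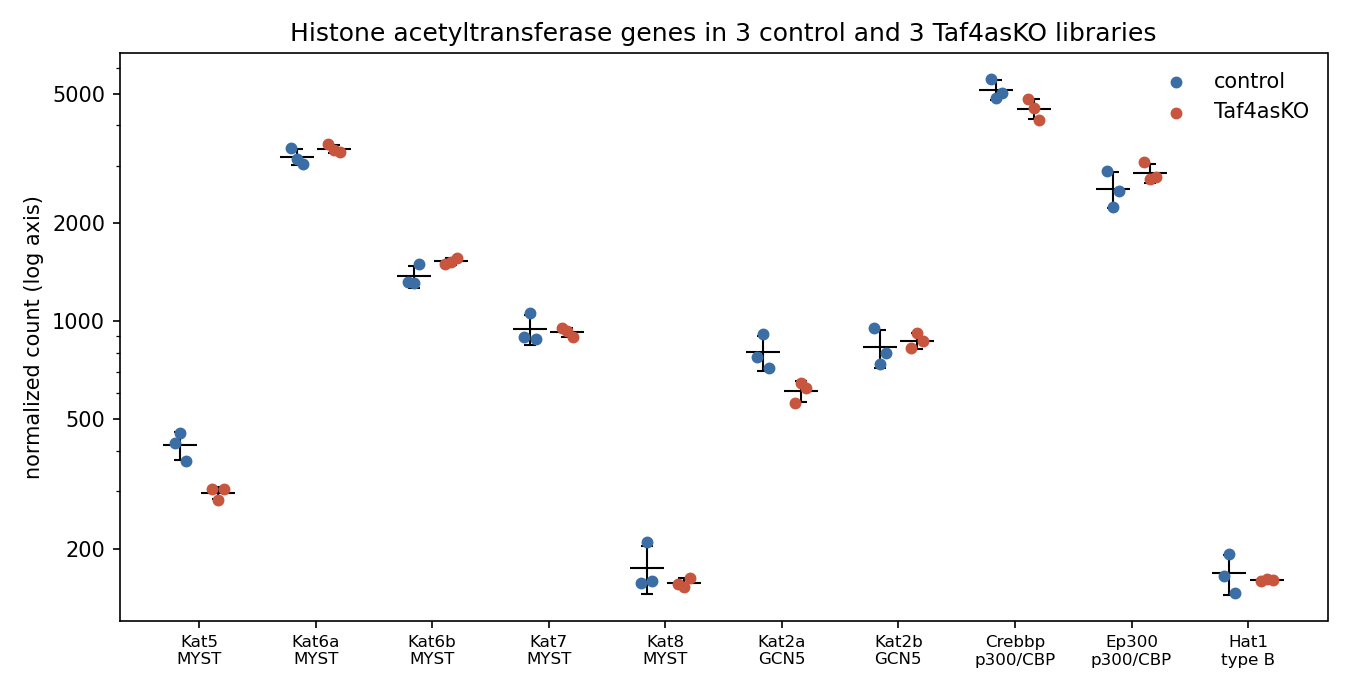
Normalized count (vertical log axis) of each of the 10 acetyltransferase genes, grouped by family along the horizontal axis, in the control (blue) and Taf4asKO (red) libraries. Each point is 1 library, the long bar is the mean and the short bars 1 SD (n = 3); the groups are apart for Kat5, Kat2a and Crebbp, and values run from 146 (Hat1) to 5554 (Crebbp).

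In the GCN5 family, Kat2a (ENSMUSG00000020918, chromosome 11, 100704746 to 100712465, minus strand) had 777, 910 and 718 in control and 560, 646 and 623 in Taf4asKO. The groups did not overlap, with the lowest control value at 718 and the highest Taf4asKO value at 646. The means were 801.7 ± 98.3 and 609.7 ± 44.5 (SD, n = 3), which is 0.763 times the control level on the fitted scale (log2 fold change -0.39, SE 0.12, 95% confidence interval -0.65 to -0.13). The limma adjusted p of 0.0573 missed the threshold. With the replicate number as a block, Kat2a passed (log2 fold change -0.39, limma adjusted p = 0.024). The members then counted 2 lower and 0 higher, beside 8.98% and 9.09% of all genes in that fit. Kat2b (PCAF, ENSMUSG00000000708, chromosome 17, 53566971 to 53672720, plus strand), the paralog that takes the same place in these complexes, had 954, 737 and 801 in control and 826, 922 and 866 in Taf4asKO. All 3 Taf4asKO values of Kat2b fell inside the control range (log2 fold change 0.08, SE 0.12, limma adjusted p = 0.718).

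The p300/CBP pair acts as coactivators of many transcription factors and acetylates histone H3 at lysine 27 at enhancers. Crebbp (CBP, ENSMUSG00000022521, chromosome 16, 4081328 to 4213997, minus strand) had 5554, 4860 and 5013 in control and 4810, 4509 and 4159 in Taf4asKO. Ep300 (p300, ENSMUSG00000055024, chromosome 15, 81585397 to 81652077, plus strand) had 2883, 2239 and 2519 in control and 3078, 2726 and 2765 in Taf4asKO. The groups did not overlap for Crebbp, with 4860 as the lowest control value and 4810 as the highest Taf4asKO value, and overlapped for Ep300. Neither passed, at log2 fold changes of -0.20 (limma adjusted p = 0.223, SE 0.10) for Crebbp and 0.17 (limma adjusted p = 0.345, SE 0.11) for Ep300. Without control replicate 2 the value of Ep300 was 0.082, and without control replicate 1 it was 0.26. Ep300 also shares exon sequence with Gm23880, a gene on the same strand.

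Hat1 (ENSMUSG00000027018, chromosome 2, 71388958 to 71441622, plus strand) had 165, 193 and 146 in control and 159, 161 and 160 in Taf4asKO. The Taf4asKO libraries were nearly equal and lay inside the control range, at a log2 fold change of -0.06 (limma adjusted p = 0.834, SE 0.15).

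Counted together, 1 of the 10 members passed with lower values, against 6.71% of all genes tested, and 0 passed with higher values, against 5.93%. With limma-voom on the estimated reads the counts were also 1 and 0. With the replicate block, upper-quartile scaling or total-count scaling they were 2 and 0, and with exon length and GC adjustment 0 and 0. In those fits 18.1%, 12.9%, 12% and 11.5% of all genes passed in either direction. At an unadjusted p under 0.05, 2 members (Kat5 and Kat2a, both lower) were past the limit, against 28.8% of all genes, and the groups did not overlap for 3 members (Kat5, Kat2a and Crebbp, all lower), against 33% of all genes. The shares at an unadjusted p and without overlap are close to or below those over all genes. The median log2 fold change of the members was -0.04, beside 0.004 over all genes. Of the 9 members that did not pass, 4 (Kat6a, Kat6b, Kat7 and Kat2b) had a 95% confidence interval that lay within a 1.3-fold change in either direction. For Kat8, Crebbp, Ep300 and Hat1 the interval reached past 1.3-fold on 1 side, so that a change of that size could not be told from none with 3 libraries per group. The study describes its replicates as biological. The sample labels give their numbers but not the animals behind each library, and the p-values measure the spread between these libraries.

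**Figure D2:**
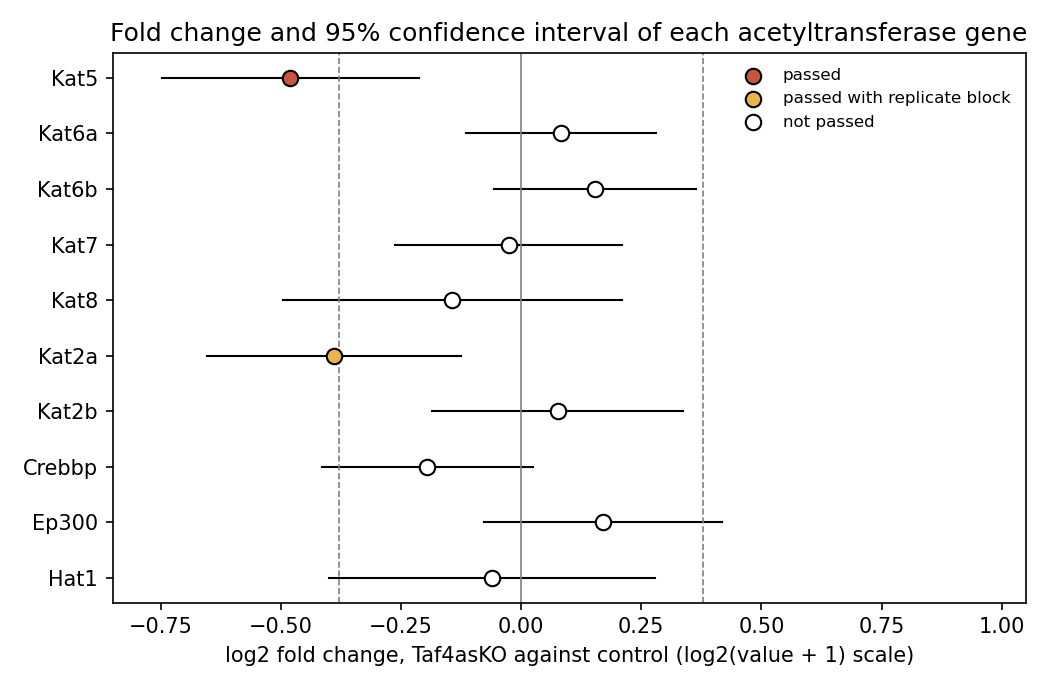
Log2 fold change of each acetyltransferase gene in Taf4asKO against control MuSCs (horizontal axis, log2(value + 1) scale), with the 95% confidence interval from limma as a line. Dashed lines mark the 1.3-fold limit; Kat5 (red) passed at -0.48, Kat2a (yellow, -0.39) passed with the replicate block, and the intervals of Kat6a, Kat6b, Kat7 and Kat2b lie between the dashed lines.

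Per kilobase of exon, the only scale on which genes can be set beside each other, the order of levels in control MuSCs ran from Crebbp at 379.8 ± 26.9 normalized counts per kb and Kat6a at 348.5 ± 20.3 through Kat2a at 230.4 ± 28.3 to Kat8 at 60.5 ± 10.2 and Hat1 at 58.2 ± 8.19 (SD, n = 3). Ep300, Kat7 and Kat2b lay between 170.7 and 178.4, Kat5 at 118.4 ± 11.3 and Kat6b at 81.7 ± 6.30. The libraries overlapped between the neighbours Crebbp and Kat6a, Ep300 and Kat7, Kat7 and Kat2b, and Kat8 and Hat1. Within each control library Crebbp lay above Kat6a (410.2, 358.9 and 370.2 against 370.8, 343.6 and 331.0 per kb). Each of the other pairs changed order between control libraries, so these pairs have no order. Over the 6 libraries the members stood between the percentile 63.5 (Hat1) and 95.1 (Kat6a) of all tested genes. In Taf4asKO MuSCs, Kat6a came first at 368.8 ± 10.5 per kb and Crebbp followed at 331.8 ± 24.1, with no overlap between them. Kat2a, which followed Kat6a in control, came after Ep300 and Kat2b at 175.2 ± 12.8 and overlapped its neighbours Kat2b (179.0 ± 9.91) and Kat7 (167.2 ± 5.31). Kat5 fell to 84.5 ± 3.62 per kb, next to Kat6b at 90.8 ± 2.10.

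The ratio of paralogs of 1 family within a library can be compared between libraries, since the size factor of the library cancels. Exon length does not cancel, so these ratios do not tell which paralog was higher. These 3 pairs were chosen after their values were seen. The ratio of Crebbp to Ep300 was 1.93, 2.17 and 1.99 in control and 1.56, 1.65 and 1.504 in Taf4asKO. The ratio of Kat2a to Kat2b was 0.815, 1.24 and 0.896 in control and 0.678, 0.701 and 0.719 in Taf4asKO. In both pairs every Taf4asKO library lay below every control library. The exact two-sided permutation test gave p = 0.1 for each, the smallest value that 3 against 3 libraries allow, and 0.15 after Benjamini-Hochberg adjustment over the 3 pairs, so this test could not reach 0.05. The ratio of Kat6a to Kat6b was 2.59, 2.41 and 2.03 in control and 2.34, 2.21 and 2.12 in Taf4asKO, and the groups overlapped (exact two-sided permutation test, p = 0.6).

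**Figure D3:**
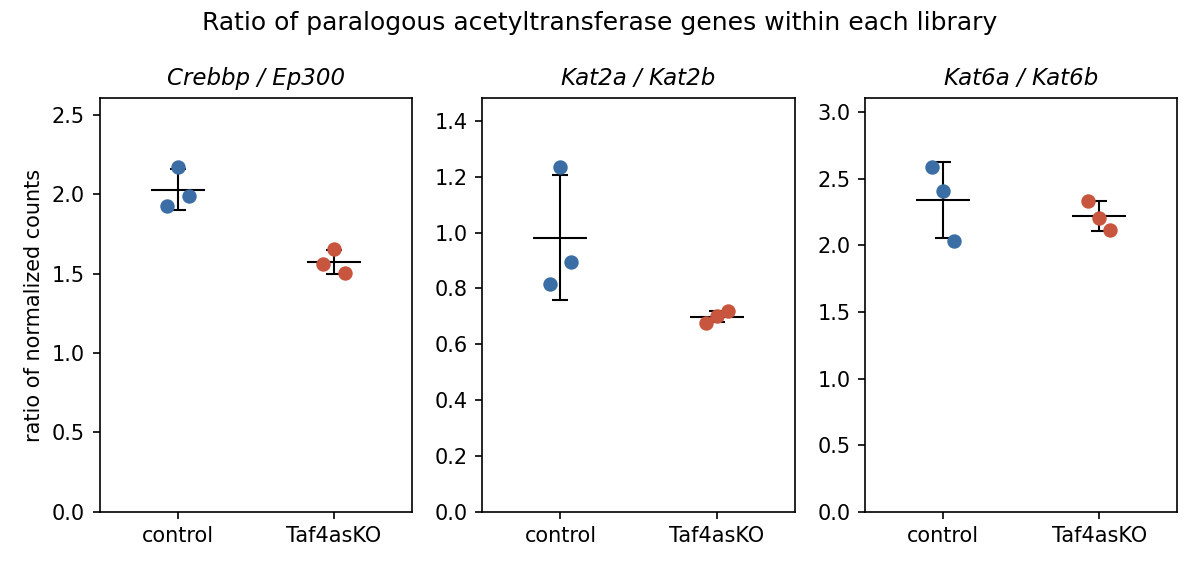
Ratio of normalized counts within each library (vertical axis) for Crebbp to Ep300, Kat2a to Kat2b and Kat6a to Kat6b, with control in blue and Taf4asKO in red. Each point is 1 library and bars give the mean and 1 SD (n = 3); the groups are apart for Crebbp to Ep300 and Kat2a to Kat2b, with means of 2.03 and 1.57 for Crebbp to Ep300 and 0.982 and 0.699 for Kat2a to Kat2b, and overlap for Kat6a to Kat6b.

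The enzymes act in complexes, and 58 partner genes were listed by complex, of which 56 were measured (Ing4 and Cited1 were not analysed here). Of the 56, 5 rose and 7 fell, 44 did not pass, and the median log2 fold change was -0.06. Over all genes tested, 5.93% rose and 6.71% fell. The groups did not overlap for 26 of the 56, against 33% of all genes.

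The NuA4/TIP60 partners of Kat5 held 16 measured genes, and 0 of them passed in either direction, also with limma-voom and with each other alternative tried. At an unadjusted p under 0.05, 4 of the 16 were past the limit, against 28.8% of all genes. The groups did not overlap in 10 of the 16, against 33% of all genes. The log2 fold change was above 0 in 5 of the 16, and the median was -0.17, beside 0.004 over all genes. Trrap, the scaffold shared with SAGA, had 3532, 3400 and 3175 in control and 2888, 2715 and 2765 in Taf4asKO, which gave -0.27 on the log2 scale (SE 0.09, limma adjusted p = 0.0725). Ep400, the ATPase of the complex, had 4000, 3740 and 3834 in control and 4568, 4125 and 4447 in Taf4asKO, a log2 fold change of 0.18 (limma adjusted p = 0.208). Both were without overlap between the groups, in opposite directions, and smaller than 1.3-fold.

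The partners of Kat8 fall into the NSL and MSL complexes. None of the 3 MSL partners passed with limma or limma-voom, and none had an unadjusted p under 0.05 (log2 fold changes from 0.07 for Msl2 to 0.16 for Msl3). Of the 8 NSL partners, Ogt (the O-GlcNAc transferase) rose, by 0.66 on the log2 scale (SE 0.11, limma adjusted p = 0.00451), and Kansl2 and Hcfc1 fell, with log2 fold changes of -0.62 (limma adjusted p = 0.0352) and -0.47 (limma adjusted p = 0.0112). Mcrs1, at -0.58, missed the threshold (limma adjusted p = 0.0584) and passed with the replicate block (limma adjusted p = 0.0456). The call of Kansl2 was lost without any single Taf4asKO replicate (limma adjusted p from 0.0833 to 0.148), and that of Hcfc1 without Taf4asKO replicate 2 or 3 (limma adjusted p = 0.0609 and 0.0682). By RT-qPCR the study also found lower Kansl2 and Mcrs1 in Taf4asKO MuSCs, and by western blot less MCRS1. Kansl2 also holds Snora2b on its own strand, and reads over that overlap were left out by the authors' counting.

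The scaffold proteins of Kat6a, Kat6b and Kat7 come as the BRPF and JADE families, and 8 partners were measured. Jade2, a scaffold for Kat7, had 421, 340 and 466 in control and 764, 821 and 1011 in Taf4asKO. The lowest Taf4asKO value was well above the highest control value, at a log2 fold change of 1.08 (limma adjusted p = 0.0018, SE 0.15), the largest rise among the partners. Jade1 rose less, from 873, 748 and 960 to 1089, 1093 and 1173 (log2 fold change 0.38, SE 0.11, limma adjusted p = 0.0498). The call of Jade1 lay at the limit and was lost in 13 of 18 alternatives, among them leaving out any library but control replicate 3 (limma adjusted p from 0.0577 to 0.186), and its exons overlap Gm31266 on the opposite strand. Jade3 (log2 fold change 0.04, limma adjusted p = 0.913), Brpf1 (-0.13, limma adjusted p = 0.499) and Brd1 (-0.02, limma adjusted p = 0.912) did not pass. Ing5, which reads methylated histone H3 lysine 4 for these complexes, fell from 651, 518 and 533 to 400, 337 and 301 (log2 fold change -0.71, SE 0.14, limma adjusted p = 0.0102), a call lost without Taf4asKO replicate 2 or 3 (limma adjusted p = 0.0557 and 0.0574). The other 5 of the 8 partners did not pass.

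Around Kat2a and Kat2b, 10 genes of the ADA module and the ATAC complex were measured. Yeats2, the acyl-lysine reader of ATAC, had 980, 936 and 948 in control and 670, 716 and 701 in Taf4asKO. Kat14, the other acetyltransferase subunit of ATAC, had 311, 349 and 303 in control and 214, 244 and 238 in Taf4asKO. Both fell without overlap, by 0.46 (SE 0.09, limma adjusted p = 0.0116) and 0.47 (SE 0.13, limma adjusted p = 0.0371) on the log2 scale, with Kat14 overlapping exons of Pet117 on the same strand. Dr1, a histone-fold subunit also known as a repressor of TATA-dependent transcription, rose from 203, 300 and 196 to 345, 378 and 327 (log2 fold change 0.61, SE 0.17, limma adjusted p = 0.0432). Of the ADA subunits, Tada2a had a log2 fold change of -0.20 (limma adjusted p = 0.391), Tada2b of 0.09 (limma adjusted p = 0.761) and Tada3 of -0.11 (limma adjusted p = 0.676). Tada1, a SAGA subunit at low counts, had 76, 75 and 73 in control and 51, 58 and 43 in Taf4asKO (log2 fold change -0.56, limma adjusted p = 0.105). Without any single Taf4asKO replicate, 0 of the 10 passed in either direction, with limma adjusted p from 0.0508 to 0.0601 for Yeats2, 0.105 to 0.123 for Kat14 and 0.108 to 0.168 for Dr1. Without control replicate 1 or 3, Kat14 (limma adjusted p = 0.0701 and 0.0508) and Dr1 (0.113 in both) did not pass either.

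Of the 5 measured genes whose proteins bind Ep300 and Crebbp, Cited2, which competes with HIF1A for their CH1 domain, had 618, 606 and 858 in control and 1095, 1251 and 1558 in Taf4asKO. The rise of 0.91 on the log2 scale (SE 0.16, limma adjusted p = 0.00669) was without overlap. The p160 coactivators, which recruit p300/CBP to nuclear receptors, had log2 fold changes of -0.41 for Ncoa1 (SE 0.11, limma adjusted p = 0.0307), -0.07 for Ncoa2 (limma adjusted p = 0.722) and 0.29 for Ncoa3 (limma adjusted p = 0.0612). Ncoa1 read 5664, 4601 and 4678 in control and 3886, 3771 and 3552 in Taf4asKO, and its exons overlap 4921501I09Rik on the opposite strand. Its call was lost without control replicate 1 or without any single Taf4asKO replicate (limma adjusted p from 0.0679 to 0.138), and with total-count scaling (limma adjusted p = 0.0848).

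Hat1 works with Rbbp7 and hands histones to chaperones and importins. Of 6 such genes Ipo4, an importin that carries H3-H4 into the nucleus, fell from 1505, 1710 and 1490 to 1099, 1000 and 1036 (log2 fold change -0.58, SE 0.10, limma adjusted p = 0.00466). It overlaps exons of Gm49378 on the same strand. Rbbp7 had a log2 fold change of -0.05 (limma adjusted p = 0.768), Rbbp4 of 0.04 (limma adjusted p = 0.878) and Nasp of 0.01 (limma adjusted p = 0.97). Asf1b, a chaperone of dividing cells, had 13, 25 and 13 in control and 8, 10 and 7 in Taf4asKO and did not pass (limma adjusted p = 0.169).

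**Figure D4:**
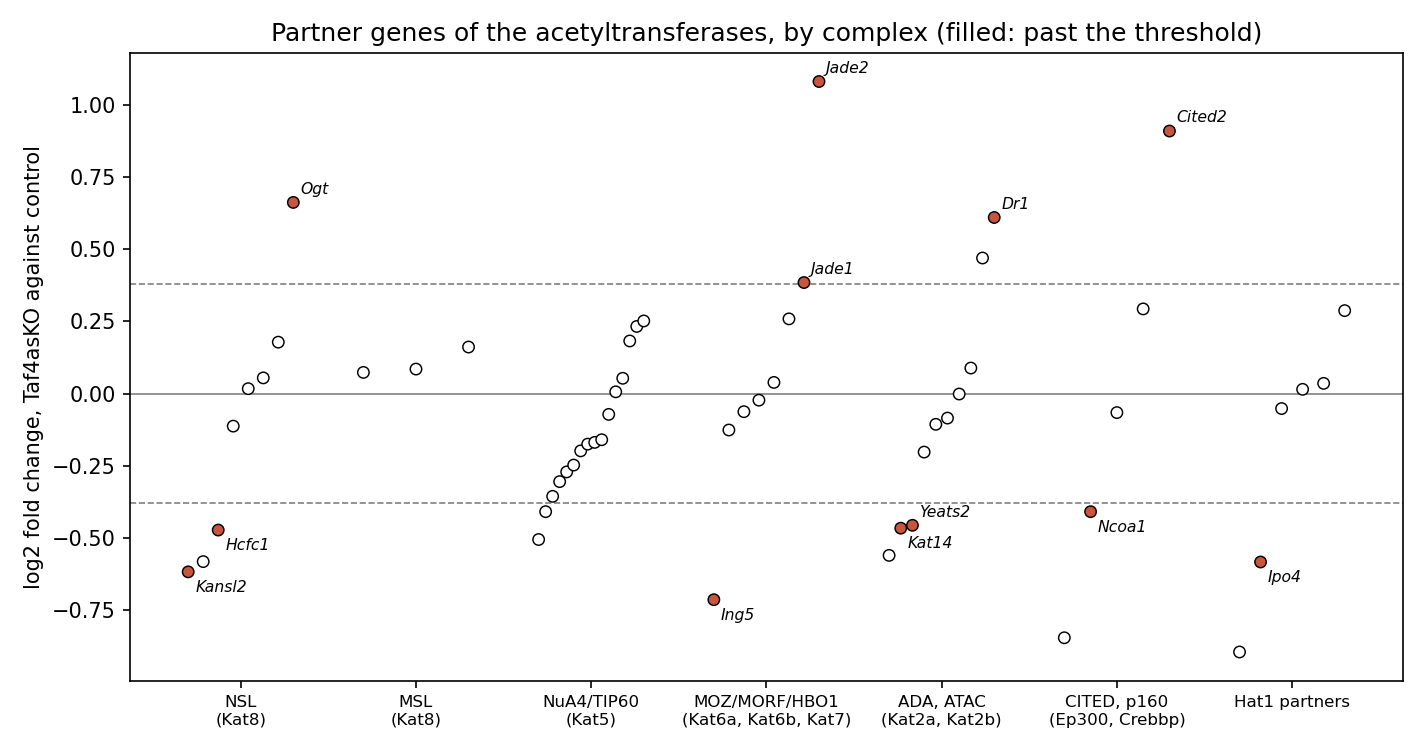
Log2 fold change in Taf4asKO against control MuSCs (vertical axis) of the 56 measured partner genes, arranged along the horizontal axis by complex and in order of the value within it. Filled points passed the threshold and are named, and dashed lines mark the 1.3-fold limit; 0 of the 16 NuA4/TIP60 partners and 0 of the 3 MSL partners are filled, and Jade2 at 1.08 is the highest.

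The substrate and the readers of acetylation complete the pathway. Of 10 genes that supply acetyl-CoA, Dlat, the acetyltransferase subunit of pyruvate dehydrogenase, rose from 400, 559 and 378 to 675, 619 and 603 (log2 fold change 0.52, SE 0.15, limma adjusted p = 0.0468), and 0 fell. Leaving out any library but control replicate 2 ended that call (limma adjusted p from 0.12 to 0.148). Acly, which makes acetyl-CoA from citrate in the cytosol and nucleus, had a log2 fold change of -0.17 (limma adjusted p = 0.3). Slc33a1, the acetyl-CoA carrier of the endoplasmic reticulum, had a log2 fold change of 0.66 (limma adjusted p = 0.0602) and passed with the replicate block (limma adjusted p = 0.0254). Of 7 genes of acetyl-lysine readers, 1 rose and 0 fell. This was Brd2, a bromodomain protein of the BET family, with 6113, 5518 and 5755 in control and 9761, 7476 and 6990 in Taf4asKO (log2 fold change 0.46, SE 0.13, limma adjusted p = 0.0403). Taf4asKO replicate 1 stood above the others, the exons of Brd2 overlap H2-DMa on the opposite strand, and the call was lost in 10 of 18 alternatives, among them leaving out any single library (limma adjusted p from 0.0538 to 0.102). Brd3, of the same family, had a log2 fold change of 0.20 (limma adjusted p = 0.278) and did not pass.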

How the data were processed

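The series measured total RNA of sorted MuSCs in 6 libraries made with a stranded low-input kit. Per the submitters' processing notes, the authors used Trimmomatic 0.39, STAR 2.6.0c on mm10, featureCounts 1.6.0 and DESeq2 1.14.1; reads mapping to several places or overlapping several genes were left out, as the methods state. The deposited values are a score, not raw counts: the authors divided reads by a size factor and rounded the result, as inferred from the values, and the size factors (0.858 to 1.33) were estimated here from which whole numbers each library uses. The table held 22081 genes and 0 columns without a sample.

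For genes with a mean of at least 5, limma 3.58.1 (R 4.3.3; lmFit, then eBayes with trend) compared log2(value + 1) between the groups, two-sided, over all 6 libraries, with no covariate and with Benjamini-Hochberg adjustment over all genes. The test was checked on simulated data. The 18 alternatives were other scalings, filters, a pseudocount of 0.1, limma-voom on estimated reads, a replicate block, adjustment for exon length and GC content, stricter limits and leaving out each library. Exon lengths and overlaps came from GENCODE M21, in which 99.8% of identifiers were found, and gene positions from the table. Named were all members, Taf4, every partner or pathway gene past the threshold, genes for contrast, and the 5 genes nearest the member with the strongest statistic; other partner and pathway genes in the text were picked with their values in view. Members and lists were chosen with earlier results of these data known. Replicate numbers come from the sample titles, which do not say that equal numbers belong together. Deviations from the group means correlated by 0.235, 0.126 and 0.15 between equal numbers and by -0.149 to 0.0141 between unequal ones. Whether the libraries are paired is thus not settled, and the replicate block was used as an alternative, not in the main fit. Libraries of a group differed beyond sampling noise (chi-square of at least 4.52 per degree of freedom). Figures were drawn with matplotlib 3.10.9.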

Additional observations from a re-analysis of the deposited data

How the results depend on the processing

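In 18 alternatives the count of members with higher values stayed at 0. The count with lower values, 1 as reported, became 2 with upper-quartile scaling, total-count scaling, a mean of at least 50 or the replicate block, where Kat2a joined. In these fits 12.9%, 12%, 19% and 18.1% of all genes passed in either direction, against 12.6% as reported. The count became 0 with exon length and GC adjustment (11.5% of all genes), at adjusted p under 0.01 (4.72%) or at a fold change of at least 2 (4.58%). Leaving out 1 library gave 0 to 2, with 0 without control replicate 1 or any Taf4asKO replicate and 2 without control replicate 3. Of all genes, 9.24% passed without control replicate 1 and 11.7% without control replicate 3. Without Taf4asKO replicates 1, 2 and 3 the shares were 6.72%, 5.25% and 5.14%. The partners, 5 higher and 7 lower, became 3 higher with exon length and GC adjustment, 3 and 1 at adjusted p under 0.01, and 1 and 0 at a fold change of at least 2; leaving out 1 library gave 3 to 4 higher and 1 to 7 lower, with 3, 1 and 1 lower without Taf4asKO replicates 1, 2 and 3.

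Of 180 member values, 165 kept direction and call, 7 lost a call (all Kat5), 5 gained one (all Kat2a) and 3 changed sign, all without control replicate 2: Kat2b to -0.0061 (leaving out 1 library gave up to 0.18), Kat7 to 0.061 (down to -0.074) and Hat1 to 0.044 (down to -0.16). The log2 fold change of Kat5 ranged from -0.56 to -0.41 (limma adjusted p from 0.0154 to 0.128) and that of Kat2a from -0.47 to -0.28 (limma adjusted p from 0.024 to 0.174). With the replicate block and the exon length and GC adjustment together, Kat5 passed (limma adjusted p = 0.0384) and Kat2a did not (limma adjusted p = 0.0955). The replicate block changed the call of Kat2a and of no other member. Over all genes, 2347 passed as reported, 3355 with the block, 876 at adjusted p under 0.01, 850 at a fold change of at least 2, and 956 to 3096 without 1 library. Upper-quartile scaling moved the median of all genes to -0.03. Among the partner and pathway genes, exon length and GC adjustment ended the calls of Jade1, Dr1, Dlat and Kat14 (limma adjusted p = 0.115, 0.0945, 0.0631 and 0.061), total-count scaling those of Jade1, Brd2 and Ncoa1 (0.108, 0.0858 and 0.0848) and upper-quartile scaling those of Jade1 and Brd2 (0.0936 and 0.0643). The causes were not tested. With 3 libraries per group, the SE of the members' log2 fold changes ran from 0.09 to 0.16, which limits what can be seen of small differences.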

Other observations

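The level of Kat5 across the 6 libraries was most like that of Gys1 (glycogen synthase of muscle), Cd82 (a tetraspanin), Mbd3 (a subunit of the NuRD complex), Heatr6 and Gemin5 (a subunit of the SMN complex), by the root mean square distance between centred log2 values, which ran from 0.0289 for Gys1 to 0.0502 for Gemin5. Gys1 read 280, 311 and 258 in control and 214, 196 and 215 in Taf4asKO (log2 fold change -0.44, limma adjusted p = 0.0534). Of the 5, Cd82, Mbd3 and Gemin5 passed, each with a log2 fold change of -0.48 (limma adjusted p = 0.0194, 0.0188 and 0.0237), and Gys1 and Heatr6 (limma adjusted p = 0.0532) passed only in some alternatives, among them the replicate block (limma adjusted p = 0.0437 and 0.0328). The calls of Cd82, Mbd3 and Gemin5 were lost in 7, 7 and 6 of 18 alternatives, in each gene without any single Taf4asKO replicate (limma adjusted p from 0.0575 to 0.0993), for Cd82 and Gemin5 without control replicate 1 (0.0542 and 0.0544), and for Cd82 and Mbd3 with exon length and GC adjustment (log2 fold changes of -0.39 and -0.29, limma adjusted p = 0.0605 and 0.163). These genes were chosen for their likeness to Kat5, so their direction is no separate result.

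Control replicate 2 held the highest control value in 5 members (Kat5, Kat7, Kat8, Kat2a and Hat1) and the lowest in 4 (Kat6b, Kat2b, Ep300 and Crebbp). The SD of log2 values was smaller in Taf4asKO than in control for 9 of the 10 members, beside 68.2% of all genes tested.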
